A study of Mus musculus with 4 samples.

Results

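The Kruppel-like factor genes examined here were *Klf1*, *Klf2*, *Klf3*, *Klf4*, *Klf5*, *Klf6*, *Klf7*, *Klf9*, *Klf10* and *Klf13*, which are 10 of the 21887 protein-coding genes of the mouse assembly GRCm38. They were chosen by name, with earlier results of these data known. Each was studied through the H3K27ac peaks in its gene body and in 50 kb on each side. H3K27ac had been measured by ChIP-Seq in 2 libraries of mouse liver sinusoidal endothelial cells (LSECs), labelled replicates 2 and 3, and an input library exists for each number. In the study's methods, LSECs were taken from dissociated livers with beads against the endothelial surface protein CD146 and fixed with 1% formaldehyde. The isolation protocol also describes plating on collagen-coated dishes and hours of culture before harvest. Whether the cells of these libraries were cultured before fixation is not given, so the values are not read as the state in the animal. Genotype, strain, age and treatment of the mice are not given for these libraries, the libraries form a single condition, and nothing states whether they came from separate animals. No comparison between conditions was therefore possible, and a difference between the libraries is given as a value with no test.

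Kruppel-like factors are transcription factors with zinc fingers at the carboxyl end that bind CACCC and GC-rich sequences, and family members either activate or repress their targets. In endothelium, *Klf2* and *Klf4* are known as genes induced by laminar flow through the MEKK3, ERK5 and MEF2 pathway, and they favour an anti-inflammatory and antithrombotic state. H3K27ac is an acetyl mark on histone H3 found at active promoters and enhancers. It does not measure the amount of RNA or protein. In a bulk library, a strong mark in few cells and a weaker mark in many cells cannot be told apart.

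The peak list of replicate 2 held 26975 peaks and that of replicate 3 held 64498, and every peak carried a fold enrichment, the authors' ratio of signal over background. Whether the inputs served as that background is not given in the sources used here. The lists hold no read counts, so the depth behind the values is unknown. Over all peaks, the median fold enrichment was 9.76 in replicate 2 and 8.89 in replicate 3, whereas in regions found in both libraries it was higher in replicate 3, with a median ratio of 2.47. For this reason, the rank of a peak within its own list is given as a percentile (100 is the strongest). A peak within 1 kb of either end of a gene was called an end peak. A peak farther than 1 kb from the ends of all protein-coding genes was called distal. A region was shared when peaks of both libraries overlapped by at least 1 bp. Percentiles compare peaks within a library and not between libraries, because shared regions tended to rank higher in the longer list of replicate 3. The median percentile over all shared distal regions was 43.5 in replicate 2 and 76.2 in replicate 3. A higher percentile of a gene in replicate 3 is therefore not read as a stronger mark. As a check of the label, 13 of 17 LSEC marker genes had an end peak in both libraries, where 43.4% of all protein-coding genes did. The count was 0 of 10 for hepatocytes, 0 of 10 for hepatic stellate cells, 0 of 6 for cholangiocytes, 1 of 8 for Kupffer cells (*Spi1*), 1 of 7 for lymphocytes (*Cd79a*) and 1 of 10 for erythroid cells (*Tal1*). In replicate 3, an end peak was found at 17 of 17 LSEC markers, 2 of 10 hepatocyte (*Apoa1* and *Apob*), 2 of 10 stellate (*Col1a1* and *Acta2*), 1 of 6 cholangiocyte (*Epcam*), 1 of 8 Kupffer, 2 of 7 lymphocyte (*Cd4* also) and 2 of 10 erythroid markers (*Epor* also), where the share of all genes was 53.9%. *Stab2*, *Clec4g*, *Mrc1* and *Tek* lacked the peak in replicate 2. The defining markers *Alb*, *Lrat*, *Clec4f*, *Krt19*, *Cd3e* and *Gata1* had no end peak in either library.

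The promoter sequences of 8 of the 10 genes were found in RefSeq (GRCm38.p6), each running from 250 bases before the start of the gene to 50 bases after it. *Klf5* and *Klf10* had no entry. The sequences of *Klf2* (chr8:72318812-72319111, plus strand), *Klf4* (chr4:55532426-55532725, minus strand), *Klf6* (chr13:5861239-5861538, plus strand) and *Klf1* (chr8:84901732-84902031, plus strand) are shown 5′ to 3′. The first 3 lay under strong H3K27ac in both libraries, whereas *Klf1* had no peak over its start and a promoter of a different composition. Capitals mark matches, on either strand, to the GC box GGGCGG, the CCAAT box, the TATA box TATAAA, the KLF box CCACCC (bound by Kruppel-like factors), the MEF2 core (CTA and TAG with any 4 bases between them), the AP-1 site TGANTCA, the CRE site TGACGTCA and the CArG box.
Klf2: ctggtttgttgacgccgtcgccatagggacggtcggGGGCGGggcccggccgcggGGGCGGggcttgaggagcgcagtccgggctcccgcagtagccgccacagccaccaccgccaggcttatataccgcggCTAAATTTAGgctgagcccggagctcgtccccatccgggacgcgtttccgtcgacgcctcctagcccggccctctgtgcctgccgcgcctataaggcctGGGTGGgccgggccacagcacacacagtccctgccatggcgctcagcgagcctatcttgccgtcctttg
Klf4: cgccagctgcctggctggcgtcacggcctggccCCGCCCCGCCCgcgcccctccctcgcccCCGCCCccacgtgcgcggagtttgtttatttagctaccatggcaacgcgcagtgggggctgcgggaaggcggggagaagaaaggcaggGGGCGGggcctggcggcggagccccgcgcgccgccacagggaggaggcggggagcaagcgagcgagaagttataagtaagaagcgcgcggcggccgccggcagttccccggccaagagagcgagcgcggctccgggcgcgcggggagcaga
Klf6: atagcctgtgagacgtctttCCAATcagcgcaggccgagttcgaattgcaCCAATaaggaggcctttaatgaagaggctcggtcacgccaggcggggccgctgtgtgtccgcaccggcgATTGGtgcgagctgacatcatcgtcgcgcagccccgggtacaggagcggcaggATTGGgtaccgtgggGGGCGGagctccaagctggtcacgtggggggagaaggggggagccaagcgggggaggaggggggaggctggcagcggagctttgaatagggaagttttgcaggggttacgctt
Klf1: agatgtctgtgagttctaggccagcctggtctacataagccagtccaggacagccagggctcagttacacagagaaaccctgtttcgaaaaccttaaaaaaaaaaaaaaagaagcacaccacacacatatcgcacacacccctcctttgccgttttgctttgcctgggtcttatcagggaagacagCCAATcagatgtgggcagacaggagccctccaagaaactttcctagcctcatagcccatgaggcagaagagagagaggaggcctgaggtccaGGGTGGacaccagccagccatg

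The *Klf2* promoter held a MEF2 core, CTAAATTTAG, at positions -118 to -109 from the start, and was the only one of the 8 with a match to it. That motif was present in 3.69% of all 32851 promoters in the table. *Klf2* also held 2 GC boxes and a KLF box at positions -19 to -14. *Klf4* held 4 GC boxes, of which the pair at -217 to -212 and -212 to -207 share a base, and no match to any other motif searched. *Klf6* held 4 CCAAT boxes and 1 GC box, and *Klf1* held 1 CCAAT box and 1 KLF box.

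Over the 8 promoters, the GC box was found in 6 (35.7% of all promoters), the KLF box in 5 (31.5%), the CCAAT box in 4 (37.4%) and AP-1 in 1, that of *Klf9* (7.81%). The TATA box (13.6% of all promoters), CRE (1.79%) and CArG box (1.63%) had no match in any of the 8. A GC box and a KLF box of *Klf13* overlap by 2 bases, at -27 to -22 and -23 to -18. The number of CpG dinucleotides was 40 in *Klf4*, 32 in *Klf2* and in *Klf13*, 29 in *Klf3*, 28 in *Klf9*, 23 in *Klf6*, 16 in *Klf7* and 3 in *Klf1*, where the median of all promoters was 7. A motif match describes letters in the window and is not evidence of binding.

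H3K27ac marked an end of every one of the 10 genes in both libraries, a state found at 43.4% of all protein-coding genes. The 10 genes were chosen with earlier results of these data known, so their count does not describe the whole family. Of the other 7 family members, 2 had such peaks in both libraries. An end peak of replicate 3, whether or not replicate 2 had it, was found at 53.9% of genes, and one of replicate 2 at 43.4%. The strength differed widely among the 10 genes. The median of the strongest end peak over the 10 genes was 30.8-fold in replicate 2 (range 6.78 to 44.7) and 91.7-fold in replicate 3 (16.5 to 134), and the medians over the 9491 genes with an end peak in both libraries were 16.3 and 47.3. The strongest end peak was among the top 10% of its list for 7 of 10 genes in replicate 2 (10.7% of all genes) and for 8 of 10 in replicate 3 (23.2% of all genes). *Klf3* made up the difference, at the 86.9th percentile in replicate 2 and the 92.1st in replicate 3. The shares of all genes include genes without an end peak, which could not reach the top 10%. Of the 9498 genes with a replicate 2 end peak, 2332 reached it. Of the 11792 genes with a replicate 3 end peak, 5069 did. When the overlap had to cover at least 50% of both peaks, 7 of 10 genes had a shared end region, as did 22.1% of all genes, and *Klf4*, *Klf5* and *Klf9* did not. Their strongest end peaks were 1021, 150 and 1139 bp wide in replicate 2 and 3617, 371 and 3133 bp wide in replicate 3.

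**Figure D1:**
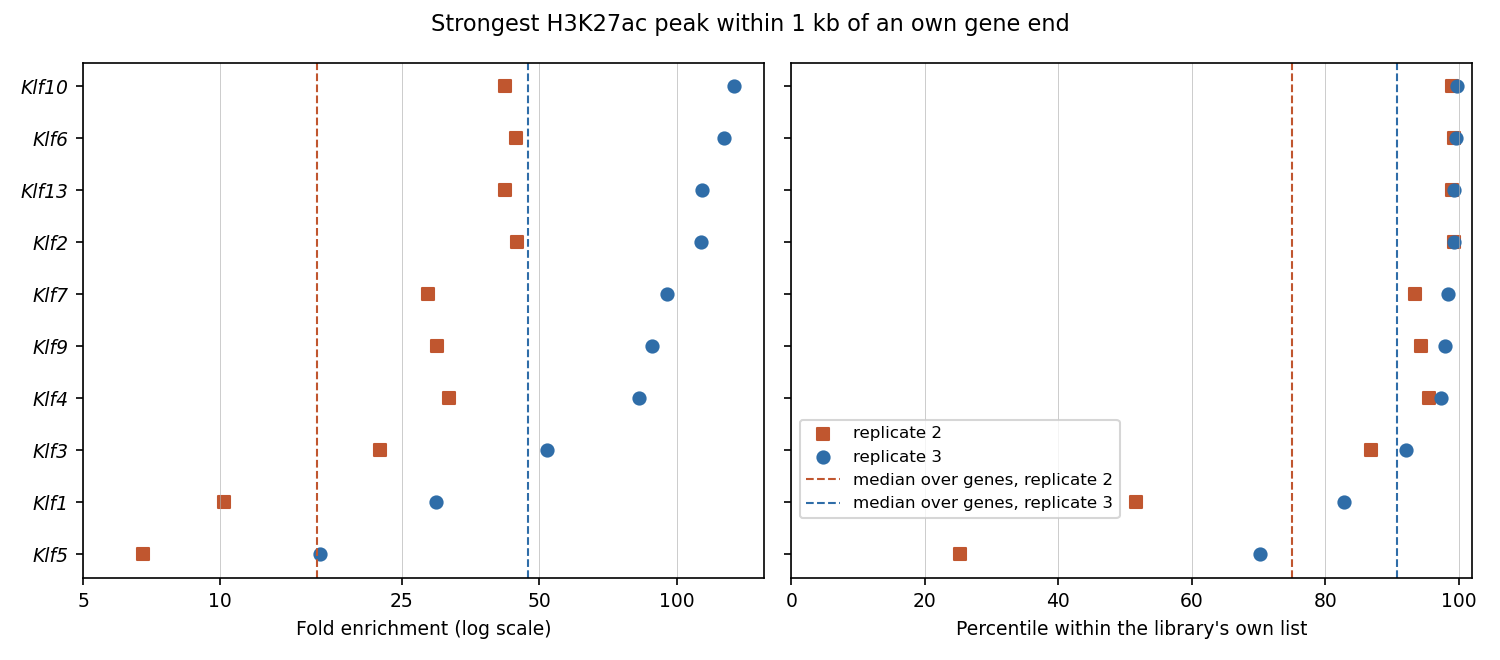
Strongest H3K27ac peak within 1 kb of either end of each gene, as fold enrichment on a log axis (left) and as percentile within the library's own list (right), with 1 point per library and dashed lines at the medians of the 9491 genes with an end peak in both libraries. *Klf10*, *Klf6*, *Klf13* and *Klf2* sit at or above the 98.9th percentile in both libraries, and *Klf5* and *Klf1* lie below both medians.

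*Klf2* and *Klf4*, the flow-responsive factors of endothelium, both carried strong peaks over their starts. At *Klf2*, the strongest end peak was 44.7-fold in replicate 2 (rank 178 of 26975) and 113-fold in replicate 3 (rank 484 of 64498), in the region chr8:72318497-72319770. At *Klf4*, it was 31.7-fold in replicate 2 (95.5th percentile) and 82.7-fold in replicate 3 (97.4th percentile), in chr4:55530042-55533658. Within their own lists, *Klf2* ranked above *Klf4* in both libraries.

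The *Klf2* region was tall and not much wider than that of most genes. It measured 1274 bp against a median of 1061 bp over 9644 genes with a shared end region, and it ended 708 bp downstream of the start. A further shared region lay just beyond the far end of *Klf2*, at chr8:72322273-72323001, with 9.47-fold in replicate 2 and 35.2-fold in replicate 3. The *Klf4* region measured 3617 bp and ran 2433 bp into the gene. Positions under a peak in each of the libraries made up 18.8% of the *Klf4* body against 8.29% of the *Klf2* body. The weakly marked *Klf1* also had 18.8%. The order of *Klf4* and *Klf2* depended on the rule. Their shares were 21.6% and 8.29% in replicate 2 alone, and 45.6% and 47.6% in replicate 3 alone. When 50% of both peaks had to overlap, they were 0% and 8.29%. In replicate 2 that *Klf4* region was split into 3 peaks.

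Both genes had shared distal regions, all of them in flanking sequence. That placement depended on the rules. Little of the *Klf2* body of 2593 bp lay farther than 1 kb from its ends. At *Klf4*, a replicate 2 body peak farther than 1 kb from the ends (9.49-fold) was merged into the region at the start. *Klf2* had 3 shared distal regions. The strongest, chr8:72295594-72296470, lay 22.6 kb from the gene body with 14.6-fold in replicate 2 and 35.2-fold in replicate 3. The others, at chr8:72300628-72301033 (8.81-fold and 20.0-fold) and chr8:72303664-72304005 (5.49-fold and 18.2-fold), lay within 1 kb of an end of the long noncoding RNA gene *Gm40505* and of the pseudogene *Gm10282*. *Klf4* had 2, chr4:55540966-55542087 near an end of the noncoding gene *Gm34343* (12.2-fold and 39.7-fold, 8.49 kb from the body) and chr4:55514681-55515241 (12.2-fold and 22.3-fold, 11.9 kb from the body). Near *Klf2*, the protein-coding gene *Eps15l1* had an end peak of 34.2-fold in replicate 2 and 131-fold in replicate 3. That peak lay at the end of *Eps15l1* outside the *Klf2* window.

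**Figure D2:**
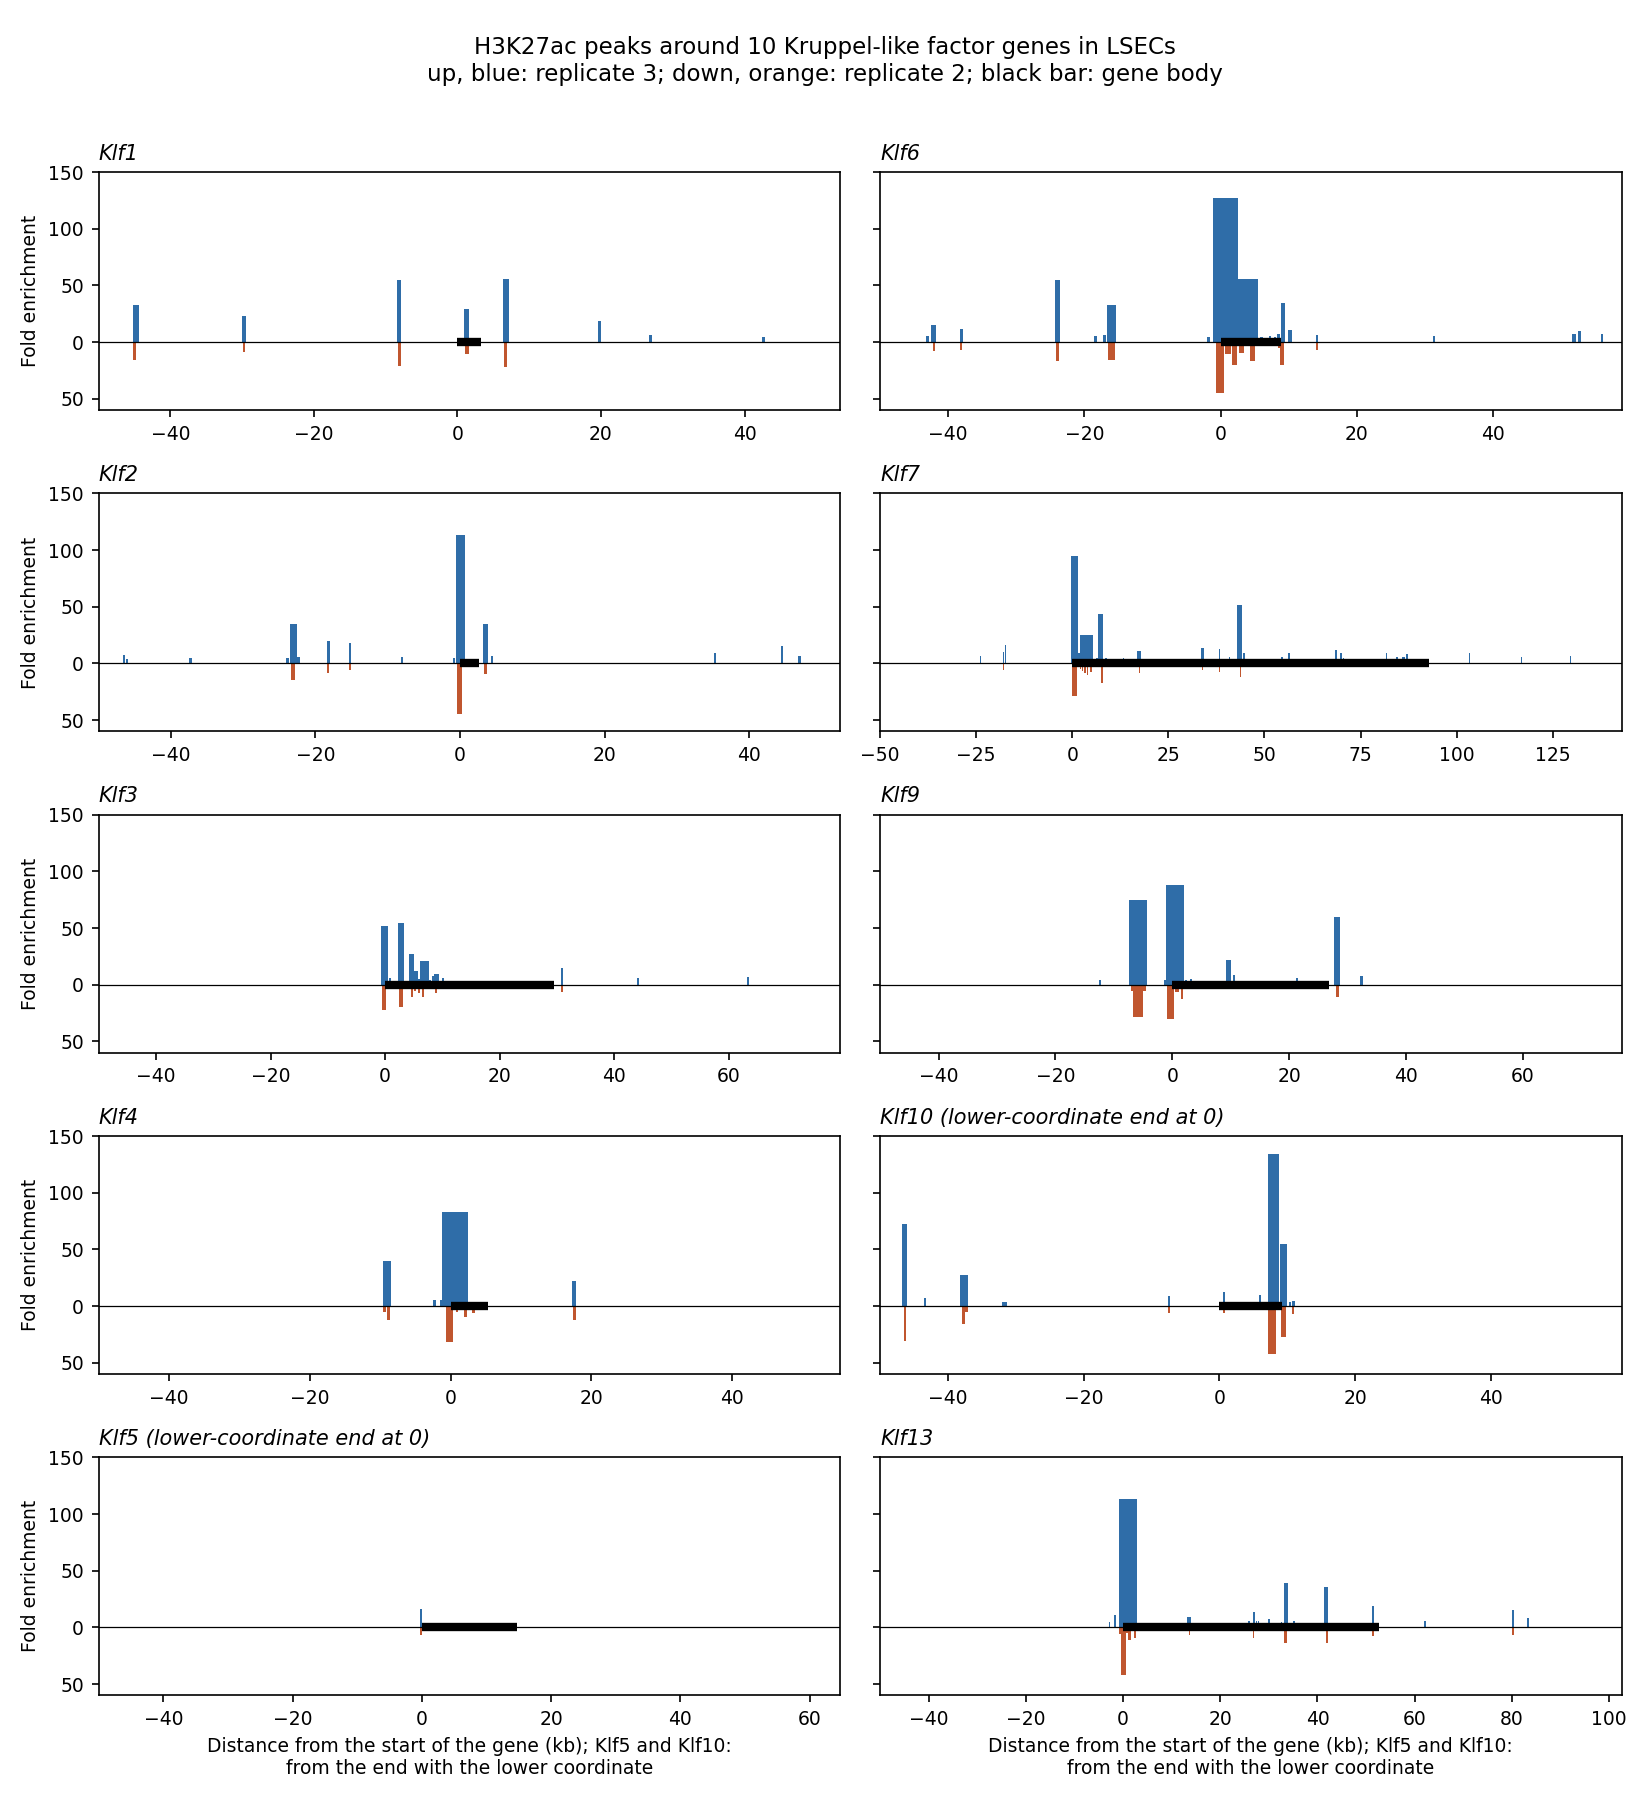
H3K27ac peaks in the body of each gene (black bar) and 50 kb on each side, with fold enrichment of replicate 3 drawn upward and of replicate 2 downward, against distance in kb from the start of the gene, or from the lower-coordinate end for *Klf5* and *Klf10*. Peaks narrower than 0.35 kb are drawn 0.35 kb wide. The tallest peak of *Klf2*, *Klf4*, *Klf6*, *Klf7*, *Klf9* and *Klf13* stands at the start in both libraries, *Klf9* has a neighbour of similar height outside its body, and *Klf5* has a single low peak.

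*Klf6*, a factor induced by tissue injury, and *Klf10*, an early response gene of TGF-β, had the strongest end peaks of the 10 in replicate 3. *Klf6* reached 44.5-fold in replicate 2 (rank 189) and 127-fold in replicate 3 (rank 249). *Klf10* reached 42.0-fold in replicate 2 (rank 279) and 134-fold in replicate 3 (rank 182). In replicate 2 these peaks were close to the 44.7-fold of *Klf2*, and the order of the 3 genes was not the same in both libraries.

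*Klf6* was marked well into its gene body in both libraries. Its region at the start, chr13:5860428-5864052, was followed after 56 bp by chr13:5864108-5867019 (16.9-fold in replicate 2 and 55.4-fold in replicate 3). Joined across gaps of up to 1 kb, they measured 6592 bp, rank 21 of 9644 genes, and ran from 1061 bp upstream to 5530 bp downstream of the start. Positions under a peak in both libraries made up 42.1% of the *Klf6* body, the 99.8th percentile among protein-coding genes, where the median was 0. Both values rest on the overlap and joining rules. When 50% of both peaks had to overlap, the *Klf6* width was 1093 bp and the covered share 3.03%, and with no gap joined the width was 3625 bp. At its far end, chr13:5870289-5870942 had 20.2-fold in replicate 2 and 34.5-fold in replicate 3. Upstream, the distal regions chr13:5837150-5837871 (17.1-fold and 54.4-fold, 23.6 kb from the body) and chr13:5844861-5846085 (15.4-fold and 33.1-fold, 15.4 kb from the body) had no annotated gene end within 1 kb.

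At *Klf10*, the strongest end region was chr15:38298656-38300290, and an adjacent one, chr15:38300448-38301481, had 27.1-fold in replicate 2 and 54.9-fold in replicate 3. *Klf10* also had the shared distal region with the highest fold of replicate 2 among all 10 genes. It lay at chr15:38244743-38245483 beside the pseudogene *Gm8705*, 46.0 kb from the body and close to the limit of the window, with 30.8-fold in replicate 2 and 72.3-fold in replicate 3. A distal region at chr15:38253277-38254335 had 16.3-fold and 27.6-fold.

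*Klf9*, a target of glucocorticoid and thyroid hormone receptors, and *Klf13*, a factor of T lymphocyte chemokine expression, were also strongly marked at their starts. *Klf9* reached 29.8-fold in replicate 2 (94.3rd percentile) and 88.2-fold in replicate 3 (97.9th percentile) at chr19:23140149-23143281. Its single shared distal region, chr19:23133839-23136959, was 3121 bp wide and nearly as strong as the start, with 28.6-fold in replicate 2 and 74.6-fold in replicate 3. It lay 4.27 kb from the body of *Klf9* near an end of the noncoding gene *2410080I02Rik*. Beyond the far end of *Klf9*, chr19:23168972-23170017 had 11.2-fold and 59.3-fold. The neighbour *Smc5* had an end peak of 9.49-fold in replicate 2 and 37.8-fold in replicate 3, at its end outside the *Klf9* window.

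*Klf13* reached 42.0-fold in replicate 2 (rank 279) and 114-fold in replicate 3 (rank 482) at chr7:63936116-63939795. The region was 3680 bp wide and was split into 5 peaks in replicate 2. Of its 5 shared distal regions, 4 lay within the body, the strongest being chr7:63905075-63905882 with 13.6-fold in replicate 2 and 39.1-fold in replicate 3, and chr7:63896749-63897549 with 13.6-fold and 35.7-fold. The latter lay near an end of the noncoding gene *Gm27252*.

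*Klf7*, best known from neurons, and *Klf3*, a repressor that recruits CtBP, carried much of their H3K27ac within the gene body. The strongest end peak of *Klf7* was 28.5-fold in replicate 2 (93.5th percentile) and 95.1-fold in replicate 3 (98.4th percentile) at chr1:64120828-64122632. Joined with the adjacent chr1:64116869-64120372, which was split into 5 peaks in replicate 2, it measured 5764 bp, rank 32 of 9644. *Klf7* had 7 shared distal regions, 6 of them in its body of 92898 bp, and 2.86% of all genes had as many or more. The strongest were chr1:64114244-64115589 (16.9-fold in replicate 2 and 43.7-fold in replicate 3) and chr1:64078212-64079466 (12.3-fold and 51.3-fold), the latter near an end of the noncoding gene *Gm13748*.

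At *Klf3*, the start region chr5:64802861-64803970 had 22.4-fold in replicate 2 and 52.1-fold in replicate 3. The body region chr5:64805763-64806793 had 19.7-fold and 54.4-fold, so its order with the start peak differed between the libraries. A further 4 shared regions in the body of *Klf3* were at the end of another gene, and *Gm38457*, annotated as protein-coding and overlapping *Klf3*, shared its end peak.

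*Klf1*, the erythroid factor that activates the β-globin gene, and *Klf5*, known from dividing epithelial and smooth muscle cells, had the weakest end peaks. At *Klf1*, the strongest end peak was 10.2-fold in replicate 2 (51.7th percentile) and 29.6-fold in replicate 3 (82.8th percentile), in chr8:84902906-84903605. That region began 924 bp downstream of the start, just inside the limit of 1 kb, and no peak of either library covered the start. *Klf1* had no shared distal region. Its 4 remaining shared regions were at ends of the neighbouring genes *Farsa*, *Syce2*, *Gcdh* and *Dnase2a*, of which *Dnase2a* (22.0-fold and 55.7-fold), *Gcdh* (20.7-fold and 54.9-fold) and *Farsa* (16.2-fold and 32.5-fold) were stronger than *Klf1* in both libraries. Of the erythroid markers, *Gata1*, *Hbb-bs*, *Hbb-bt*, *Hba-a1*, *Hba-a2* and *Alas2* had no end peak in either library. *Tal1*, which endothelial cells also express, had 15.6-fold in replicate 2 and 30.9-fold in replicate 3, and *Epor* had 13.4-fold in replicate 3 only.

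*Klf5* was the least marked of the 10. The only peak of its window in either library lay at chr14:99298425-99298795, with 6.78-fold in replicate 2 (25.3rd percentile) and 16.5-fold in replicate 3 (70.3rd percentile). The region measured 371 bp, rank 9504 of 9644, and no position of the body lay under a peak in both libraries. The neighbour *Pibf1* had an end peak of 18.9-fold in replicate 2 and 75.2-fold in replicate 3, at its end outside the *Klf5* window.

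The joined width at the gene ends separated the genes in another order than the height. It was 6592 bp at *Klf6*, 5764 bp at *Klf7*, 3857 bp at *Klf10*, 3680 bp at *Klf13*, 3617 bp at *Klf4*, 3133 bp at *Klf9*, 1274 bp at *Klf2*, 1110 bp at *Klf3*, 700 bp at *Klf1* and 371 bp at *Klf5*. A width of at least 2500 bp, a limit chosen after the widths had been seen, was reached by 6 of 10 genes. Only 9644 of the 21887 protein-coding genes had a joined region to measure, and 517 reached that width (2.36% of all 21887). With no gap joined, 4 of 10 genes reached it (*Klf4*, *Klf6*, *Klf9* and *Klf13*), and only *Klf10* did when the overlap had to cover at least 50% of both peaks. The widest gene also changed, to *Klf13* (3680 bp) with no gap joined and to *Klf3* (10057 bp) with gaps of up to 2.5 kb joined. *Klf2*, with a height at the 99.3rd percentile in both libraries, was at the 65.2nd percentile of width. The median width over the 10 genes, 3375 bp, fell to 1720 bp when no gap was joined and to 896.5 bp with the stricter overlap.

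**Figure D3:**
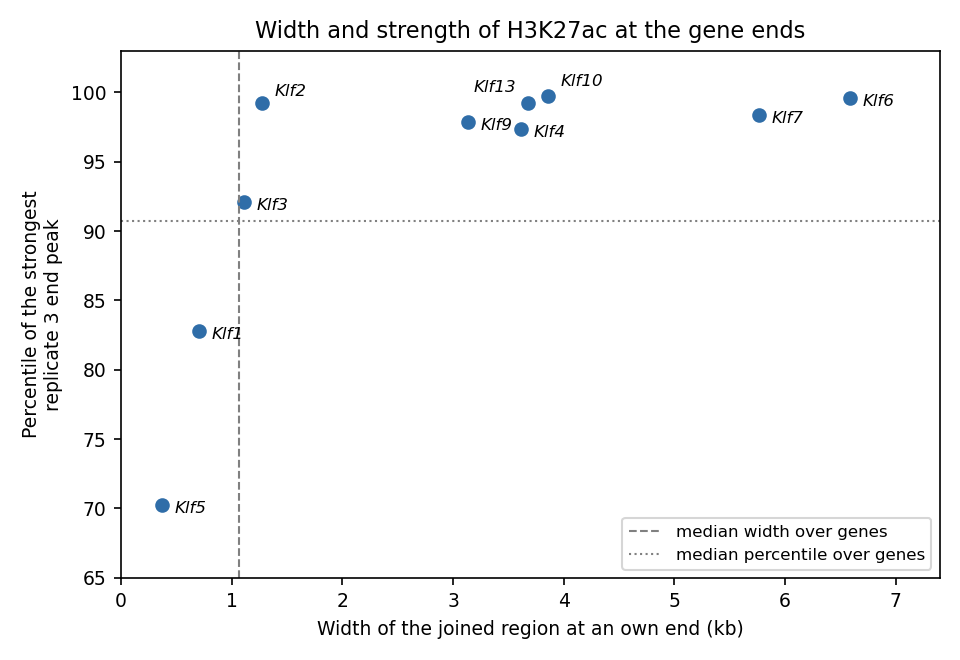
Width of the joined H3K27ac region at an end of each gene (kb) against the percentile of the strongest end peak in replicate 3, 1 point per gene, with lines at the medians over genes. *Klf2* is high but, at 1274 bp, close to the median width of 1061 bp, and *Klf6* and *Klf7* lie farthest to the right at 6592 and 5764 bp.

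At the 7 genes with a peak over an annotated start, the strongest peak had its summit upstream of the start in both libraries. The summit lay at -143 bp in replicate 2 and -127 bp in replicate 3 at *Klf2*, at -129 and -121 at *Klf4*, at -169 and -175 at *Klf6*, at -149 and -145 at *Klf9*, at -123 and -145 at *Klf13*, at -238 and -239 at *Klf3* and at -336 and -342 at *Klf7*. At *Klf1* it lay inside the gene, 1233 bp downstream in replicate 2 and 1189 bp in replicate 3. A summit upstream in both libraries was thus seen in 7 of 8 genes with a known start, as in 69.7% of 6319 genes. The summits of the libraries were within 25 bp of each other at 7 of 8 genes and at 49.1% of the 6319, a distance chosen after the summits had been seen. At *Klf2*, the summits of both libraries fell in the printed promoter, upstream of the MEF2 core.

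**Figure D4:**
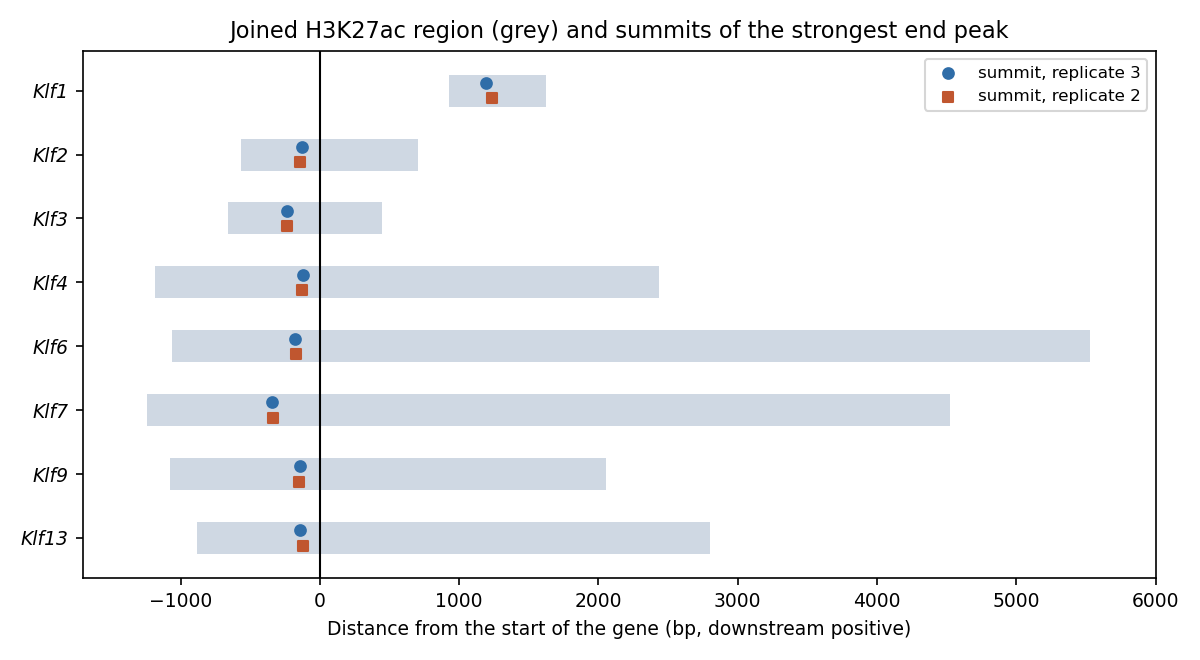
Extent of the joined H3K27ac region (grey bar) and the summit of the strongest end peak in each library for the 8 genes with a known start, against distance from the start in bp. The summits of 7 genes lie upstream of the start, and the grey bars reach farther downstream than upstream at all 7 of those genes but *Klf3*.

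Over all windows of the 10 genes, 31 distal regions were shared, 13 in gene bodies and 18 in flanks. At least 1 was found for 8 of 10 genes, the exceptions being *Klf1* and *Klf5*, and for 51.1% of all protein-coding genes. The number was 7 at *Klf7*, 6 at *Klf6*, 5 at *Klf13*, 4 at *Klf10*, 3 at *Klf2* and at *Klf3*, 2 at *Klf4* and 1 at *Klf9*, with a median of 3 over the 10 genes and of 1 over all genes. Windows were longer for longer genes, so these counts do not compare equal lengths of sequence. The total was 16 when 50% of both peaks had to overlap, 13 in gene bodies alone, 19 with 10 kb on each side and 50 with 100 kb on each side. Of the 31 regions, 24 had no end of any annotated gene within 1 kb.

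The fold enrichment of the shared distal regions was near that of the whole genome. Their median was 9.47-fold in replicate 2 (range 5.49 to 30.8) and 20.0-fold in replicate 3 (4.50 to 74.6), against 8.81 and 21.2 over all 15212 shared distal regions. Peaks of replicate 3 alone made up 79 more distal regions, 25 of them at *Klf7*, with a median of 5.61-fold, and 1 region came from replicate 2 alone, in the body of *Klf4* at chr4:55529139-55529288 (6.10-fold). The strongest of the 79 was chr19:23150494-23151226 in the body of *Klf9*, with 22.1-fold. In the whole genome, 69.1% of distal regions came from replicate 3 alone, as against 79 of the 111 here (71.2%).

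**Figure D5:**
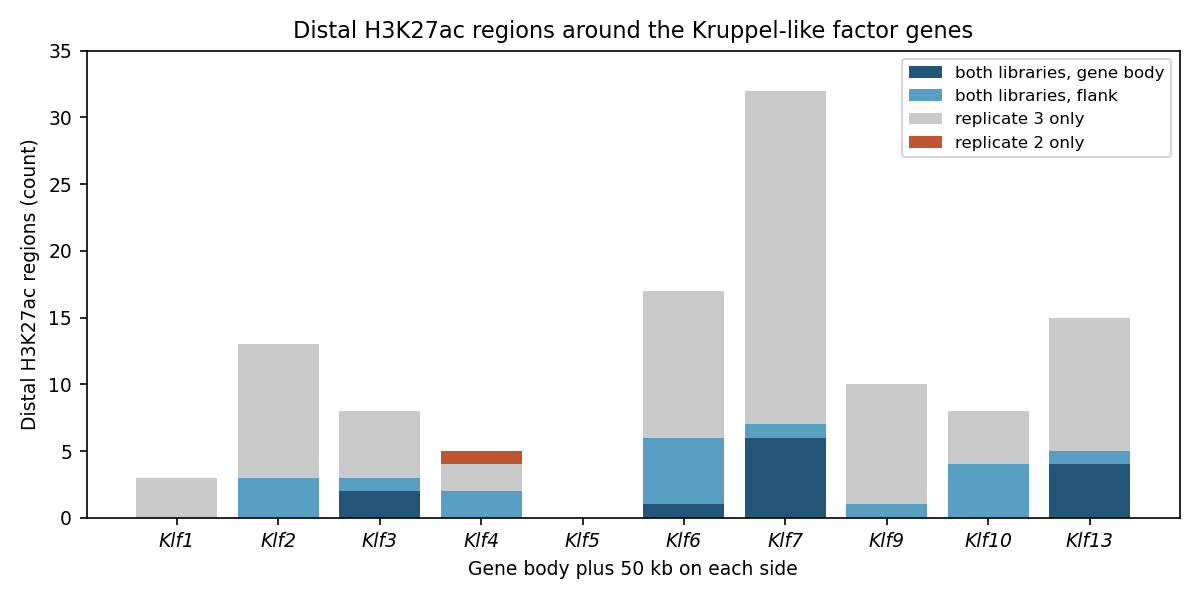
Number of distal H3K27ac regions in each gene's body plus 50 kb on each side, stacked by the libraries that held a peak and, for shared regions, by place. *Klf7* holds 7 shared regions, mostly in its body, and 25 found in replicate 3 only, and *Klf5* holds none.

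Nearly all peaks of replicate 2 near these genes had a counterpart in replicate 3, and fewer of those of replicate 3 had a counterpart in replicate 2. Of 76 peaks of replicate 2 in the windows, 75 overlapped a peak of replicate 3 (98.7%). Of 139 peaks of replicate 3, 56 overlapped a peak of replicate 2 (40.3%, Wilson 95% interval 32.5% to 48.6%, over peaks). The genome-wide share was 37.7%. The 139 peaks lay in 10 windows, 33 of them at *Klf7*, and are not independent. By gene, the share ran from 24.2% at *Klf7* to 100% at *Klf5*, a spread the interval does not cover. The fold enrichment of the strongest end peak was higher in replicate 3 at all 10 genes, by a ratio of 2.33 at *Klf3* to 3.34 at *Klf7*. Over all shared regions at a gene end, the quartiles of that ratio were 2.24 and 3.45.

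Among the other 7 family members, 2 (*Klf11* and *Klf16*) had an end peak in both libraries, beside 43.4% of all genes, with 35.8-fold and 32.5-fold in replicate 2 and 135-fold and 54.7-fold in replicate 3. *Klf12* had an end peak in replicate 3 only and 2 shared distal regions. *Klf8*, *Klf14*, *Klf15* and *Klf17* had none in either library, although *Klf15* had 1 shared distal region in its window.

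In the pathway upstream of *Klf2* and *Klf4* in endothelium, 8 of 11 genes had an end peak in both libraries, as did 43.4% of all genes. The flow sensor gene *Piezo1*, the cerebral cavernous malformation genes *Krit1*, *Ccm2* and *Pdcd10*, and the kinase genes *Map3k3* and *Mapk7* were among them. *Map2k5*, *Mef2a* and *Mef2c* had no end peak in either library, and their windows held 4, 6 and 10 shared distal regions. Their bodies were long, at 217915, 145294 and 163063 bp. Only the outer ends of a gene were counted, so a peak at a start inside a gene would be called distal. Of 10 endothelial targets of *Klf2* and *Klf4*, 7 had an end peak in both libraries (43.4% of all genes) and all 10 had at least 1 shared distal region (51.1% of all genes). *Kdr*, the VEGF receptor gene, had 12 and *Tek*, the angiopoietin receptor gene, had 8. *Asb2* had no end peak in either library. In replicate 2, the end peaks of *Cav1* (5.42-fold, 7.67th percentile), *Timp3* (6.71-fold, 22.0th) and *Nos3* (6.93-fold, 27.6th) ranked low. Those of *Thbd*, *Kdr*, *Nfe2l2* and *S1pr1* lay at the 80.6th, 86.9th, 89.9th and 97.3rd percentiles. *Kdr* and *Tek* were also counted among the LSEC markers.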

How the data were processed

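H3K27ac ChIP-Seq peak lists of LSEC libraries C2 and C3, grouped by their titles, were analysed. The 2 input libraries were not analysed here. The submitters' processing notes name mm10, cutadapt 0.4.4, BWA 0.7.17, Picard 1.67, MACS2 2.0.10 and bedtools 2.27.1, without stating their roles. The labels describe sonicated chromatin and the study's methods a tagmentation-assisted ChIP-Seq, and which applies was not settled. The authors called peaks per library. Each deposited list gives a fold enrichment (a ratio to background), the authors' −log10 p-value and −log10 q-value, and a score derived from the latter. The lowest −log10 q of any listed peak was 2.01. Depth is unknown.

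Gene positions and promoters came from RefSeq (GRCm38). Exons and introns were not told apart. Overlaps were computed with Python 3.11.15, pandas 2.3.3 and numpy 2.4.6, in code tested on simulated data. Overlapping peaks were merged into regions, and end regions were joined across gaps of up to 1 kb, counting regions with both libraries. Covered share was the percentage of a gene body at which peaks of both libraries coincide. Percentiles ranked fold enrichment within a list. Intervals cover counting of peaks only.

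No test was run, because the libraries form a single condition. The members and lists were chosen with earlier results of these data known. The members, neighbours with an end peak in both libraries, and from each list at most 4 genes (most shared distal regions, or no end peak) were to be named. Any other list gene was named after its values had been seen. Alternatives were a q-value of 1e-05, equal numbers of peaks, a reciprocal overlap of 50%, other windows and joining gaps, ends of any annotated gene, ranking by −log10 p, and leaving out each library.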

Additional observations from a re-analysis of the deposited data

How the results depend on the processing

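All 10 genes had an end peak in both libraries at a q-value limit of 1e-05, with equal numbers of peaks and with end windows of 2.5 kb. With the start alone, 8 of the 8 genes with a known start had it, and 7 of 10 genes did when 50% of both peaks had to overlap. That each library taken alone had an end peak at all 10 follows from the main count and is not a separate check. The total of 31 shared distal regions was 16 with that requirement, 13 in gene bodies alone, 19 with 10 kb and 50 with 100 kb on each side, and 47 to 110 when 1 library was left out. Their median per gene, 3, was 1 with the requirement, 0 in gene bodies alone, 1.5 with 10 kb and 5 to 9 with 1 library left out. The median joined width, 3375 bp, was 896.5 bp with the requirement, 1720 bp with no gap joined and 3034 to 4240 bp with 1 library left out. The median covered share, 7.64%, was 2.96% with the requirement and 7.95 to 21.3% with 1 library left out. Of 310 values under alternatives, 227 stayed within the limits set for a change and 83 moved. A change of direction was not assessed. For counts, the limit was a ratio of 1.5 to the main value. For widths and covered shares, it was the standard deviation of the values from each library alone. That limit grew where the libraries differed, so the fall of the median covered share from 7.64% to 2.96% counted as unmoved. The lists give no read counts, so no absent peak can be weighed against depth. No paired analysis was possible because only the inputs share the replicate numbers, which were not used here, and both H3K27ac libraries belong to 1 condition.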

Other observations

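All 7 genes of cofactors through which Kruppel-like factors act had an end peak in both libraries, as did 43.4% of all protein-coding genes. They were the corepressor genes *Ctbp1*, *Ctbp2*, *Sin3a* and *Hdac1* and the acetyltransferase genes *Ep300*, *Crebbp* and *Kat2b*. The end peak of *Sin3a* was near the bottom of the replicate 2 list, at 4.74-fold (2.33rd percentile), and had 71.4-fold in replicate 3. *Hdac1* had 5 shared distal regions and *Ctbp2* had 4, the highest numbers in the list.

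Of the 9 Sp factor genes, which encode the zinc finger proteins most closely related to Kruppel-like factors, 3 had an end peak in both libraries (*Sp1*, *Sp3* and *Sp4*), beside the same 43.4% of all genes. *Sp2*, *Sp7* and *Sp9* had an end peak in replicate 3 only, and *Sp5*, *Sp6* and *Sp8* had none. *Sp1* had 44.2-fold in replicate 2 and *Sp4* had 47.4-fold, values close to the 44.7-fold of *Klf2* in the same library. *Sp1* had 3 shared distal regions, the most in the list.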
